A study of Mus musculus with 24 samples.

Results

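The pituitary hormone genes described here are Gh, Prl, Pomc, Cga, Lhb, Tshb, Pou1f1 and Ghrhr, read in RNA from whole mouse brain. They were taken by name, as every probe set whose only gene symbol was a member, and each gene was read by the probe set with the highest mean over all arrays. Of the 8 genes, 7 were measured, by 11 probe sets, among 18193 genes with a named probe set. No probe set named here carried Pou1f1, and it was not analysed. Gh, Prl, Pomc and Lhb, with 8 probe sets, were bright enough to be among the 27022 probe sets tested, while Cga, Tshb and Ghrhr fell among the dimmest 40%.

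Total RNA from the brains of 4-month-old mice had been hybridised to 24 Affymetrix arrays, in 4 groups of 6. The labels name the genotypes aSYN/Hsp70, aSYN, Hsp70 and wt, without spelling out aSYN, which may be read as alpha-synuclein. The labels do not give how each genotype was made, nor any promoter that drives it, nor whether the pituitary gland was kept with the brain or removed from it. They also do not say whether each sample is a different animal, so p-values measure only the spread between these samples, which may be technical. Median deposited intensity per array ran from 458 to 893. By their Xist and Y-linked signals, 11 samples were male and 13 female. Of the hypothalamic neuropeptide genes, Pmch, which encodes melanin-concentrating hormone, lay between 12.60 and 14.55 log2 units over the arrays and Oxt, which encodes oxytocin, between 10.31 and 13.45. Trh and Crh, which encode the releasing hormones of thyrotropin and corticotropin, lay between 6.42 and 10.20 and between 5.95 and 11.28. Their medians were 9.29 and 10.44. Ghrh, which encodes the releasing hormone of growth hormone, did not pass the filter on dim probe sets. These genes were picked from a longer list after their values were seen.

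The anterior pituitary is an endocrine gland that hangs from the base of the hypothalamus and holds separate hormone-producing cell types. Somatotrophs make growth hormone (Gh) under the control of the receptor Ghrhr, lactotrophs make prolactin (Prl), and corticotrophs and the melanotrophs of the intermediate lobe make pro-opiomelanocortin (Pomc). Gonadotrophs and thyrotrophs join a shared alpha subunit (Cga) to the beta subunit of luteinising hormone (Lhb) or of thyroid-stimulating hormone (Tshb), and the factor POU1F1 is needed for the somatotroph, lactotroph and thyrotroph lineages. Pomc is also a gene of the brain itself, made by neurons of the arcuate nucleus.

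Gh, Prl, Pomc and Cga were very high on 1 wt array. Gh, Prl and Cga were also high on 1 aSYN/Hsp70 array, where Pomc was raised less, and on a second wt array. On the deposited linear scale, Gh read 21099 intensity units in aSYN/Hsp70 replicate 6, against 57846 in wt replicate 5 and 6669 in wt replicate 1. The other 21 arrays lay between 36.7 and 1542. Every probe set of Gh, 4 in all, ranked wt replicate 5, aSYN/Hsp70 replicate 6 and wt replicate 1 as the 3 highest of 24 arrays. On the log2 scale used from here on, log2(intensity + 16) after quantile normalisation, Gh spanned 10.13 units over the 24 arrays.

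By group, the lowest, median and highest Gh values were 5.67, 10.10 and 14.35 log2 units in aSYN/Hsp70, and 8.59, 8.97 and 9.89 in aSYN. In Hsp70 they were 9.02, 9.65 and 10.25, and in wt 8.11, 9.82 and 15.80. On this probe set the aSYN and Hsp70 arrays lay within a narrow band that the aSYN/Hsp70 and wt arrays overran in both directions. Within-group SD was 2.76 in aSYN/Hsp70, 0.44 in aSYN, 0.40 in Hsp70 and 3.00 in wt (n = 6 each). The band was wider on the other 3 Gh probe sets, where the SD in aSYN was 0.90, 1.26 and 1.04, and on the last of these the lowest aSYN array, at 5.50, lay below the lowest aSYN/Hsp70 array, at 7.74.

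Prl behaved much like Gh on the high arrays but spread more among the rest. Its lowest, median and highest values were 7.46, 9.36 and 12.04 log2 units in aSYN/Hsp70, 5.92, 8.24 and 9.39 in aSYN, 6.46, 9.18 and 11.41 in Hsp70, and 6.06, 9.35 and 16.40 in wt. The deposited Prl intensity was 4228 in aSYN/Hsp70 replicate 6, against 87646 in wt replicate 5 and 9396 in wt replicate 1. Those were the third, first and second highest arrays for Prl, and the other 21 arrays reached at most 2864. All 4 groups overlapped.

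For Pomc, the precursor of corticotropin and melanocyte-stimulating hormone, the lowest, median and highest values were 9.75, 10.98 and 12.10 log2 units in aSYN/Hsp70, 9.62, 9.92 and 10.95 in aSYN, 9.31, 10.13 and 11.06 in Hsp70, and 9.69, 10.28 and 14.89 in wt. On this probe set Pomc thus had a fairly steady level on most arrays, between 9.31 and 11.16 log2 units on the 21 arrays other than the 3 named above. The array of wt replicate 5 lay far above it. A second Pomc probe set was dimmer, spanned 9.55 log2 units against 5.58 for the brighter one, and also read highest in wt replicate 5. It was not steady on the same 21 arrays, where it ran from 5.24 to 10.10 log2 units.

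Cga, the alpha subunit shared by the glycoprotein hormones, was dim on most arrays. Its lowest, median and highest values were 5.12, 6.32 and 10.73 log2 units in aSYN/Hsp70, 5.54, 6.14 and 7.27 in aSYN, 5.43, 6.74 and 8.10 in Hsp70, and 5.10, 5.93 and 11.48 in wt. The highest arrays were again wt replicate 5, aSYN/Hsp70 replicate 6 and wt replicate 1, in that order, at 2816, 1692 and 370 deposited units.

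The beta subunits and the receptor did not show such arrays. Lhb lay between 6.34 and 9.40 log2 units over all 24 arrays, Tshb between 5.56 and 9.20, and Ghrhr between 5.22 and 8.94. The highest Lhb array was also wt replicate 5, but wt replicate 2 was close to it, at 9.20. Group means of Lhb were 8.43 ± 0.49 in aSYN/Hsp70, 7.84 ± 0.63 in aSYN, 7.91 ± 1.07 in Hsp70 and 8.56 ± 0.89 in wt (SD, n = 6 each). Tshb averaged 7.33 ± 1.31, 7.87 ± 0.72, 7.76 ± 1.25 and 7.95 ± 1.21 in the same groups, and Ghrhr 7.13 ± 0.73, 6.72 ± 1.07, 7.17 ± 1.36 and 6.92 ± 1.11. For each of these 3 genes the group means differed by less than the largest group SD.

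**Figure D1:**
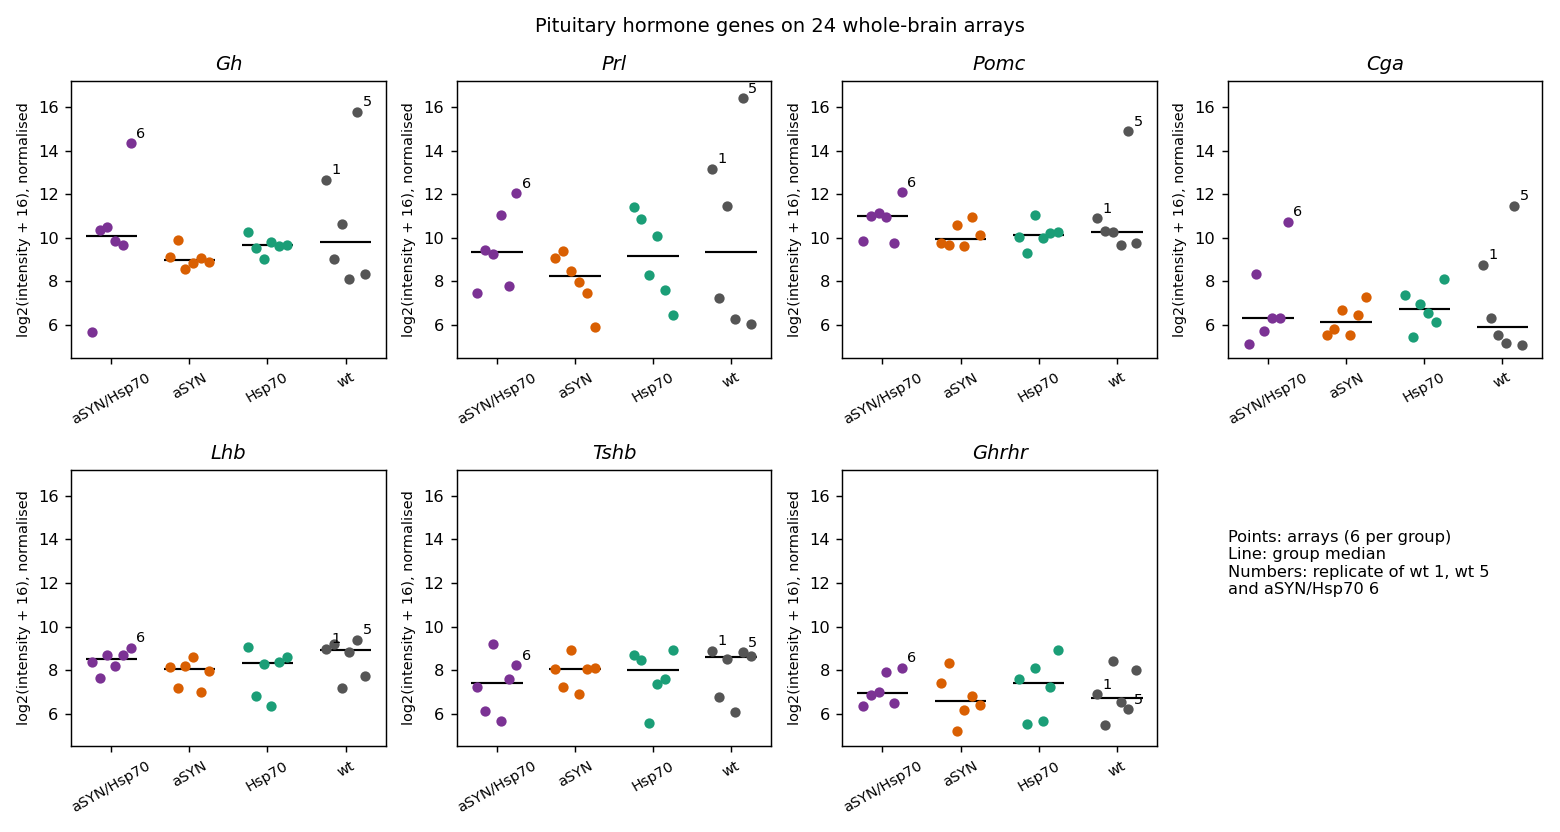
Normalised log2(intensity + 16) of the 7 measured pituitary hormone genes on each array (points, 6 per group) with the group median (line); replicates wt 1, wt 5 and aSYN/Hsp70 6 are numbered. In Gh, Prl, Pomc and Cga the point of wt replicate 5 lies at 15.80, 16.40, 14.89 and 11.48, while Lhb, Tshb and Ghrhr show no separate point.

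Measured from the median of its own group, aSYN/Hsp70 replicate 6 was 19.1-fold higher for Gh, 21.2-fold for Cga, 6.44-fold for Prl and 2.17-fold for Pomc. The array of wt replicate 5 was higher than the wt median 63.3-fold for Gh, 132-fold for Prl, 46.7-fold for Cga and 24.4-fold for Pomc, and wt replicate 1 was higher 7.19-fold for Gh, 14.2-fold for Prl and 7.11-fold for Cga. All these folds are on the log2(intensity + 16) scale and understate the change of a dim probe set such as Cga. Between the well-measured genes, the Prl fold was larger than the Gh fold in wt replicate 5 and smaller in aSYN/Hsp70 replicate 6. In whole-tissue RNA, more cells of a type and more RNA per cell cannot be told apart.

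In aSYN/Hsp70 replicate 6, Lhb, Tshb and Ghrhr were above the group median by 0.51, 0.81 and 1.18 log2 units. The brightest Pomc probe set was above it by 1.12, about as far as Ghrhr, but the second Pomc probe set by 2.55. In wt replicate 5, Lhb, Tshb and Ghrhr differed from the wt median by 0.49, 0.23 and -0.51 log2 units.

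**Figure D2:**
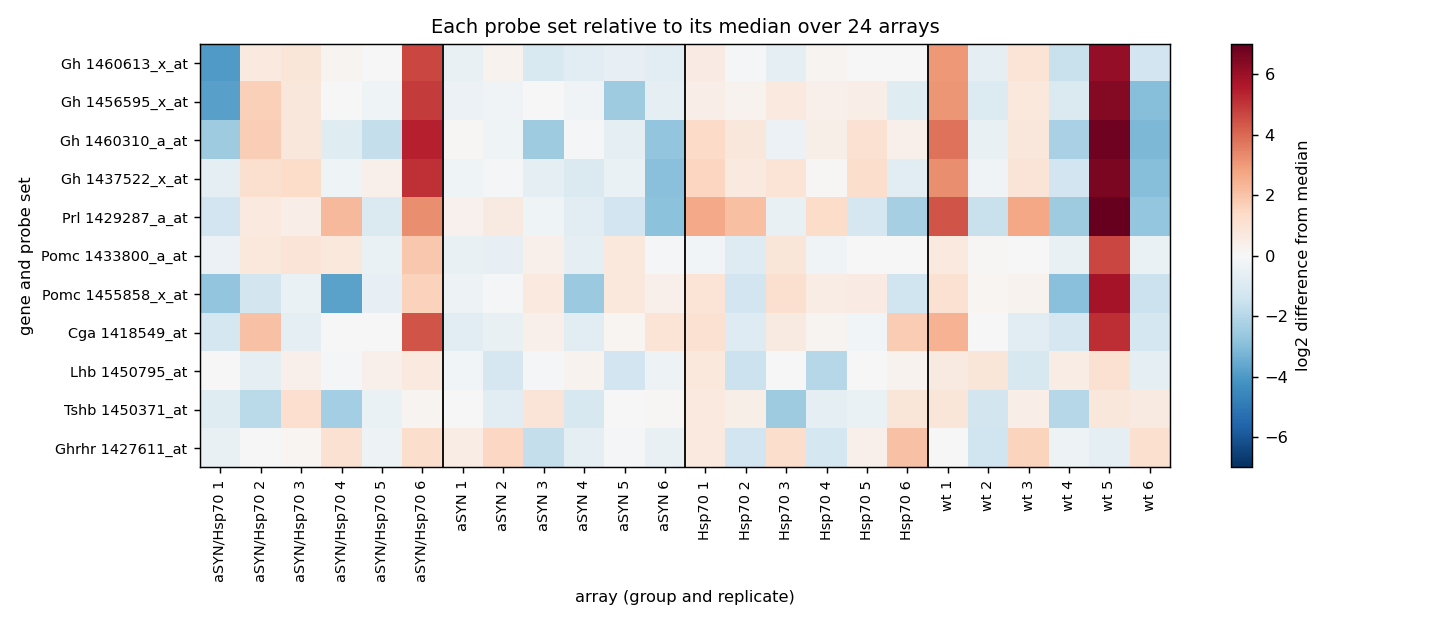
Log2 difference of each of the 11 member probe sets (rows) from its median over 24 arrays, for every array (columns, by group and replicate). The columns of wt replicate 5, aSYN/Hsp70 replicate 6 and wt replicate 1 are red in all 4 Gh probe sets, in Prl and in Cga; the low Gh value of aSYN/Hsp70 replicate 1 (5.67 log2 units) is seen in 3 of the 4 Gh probe sets.

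The array-to-array spread of Prl and Gh was among the widest of all probe sets. The median within-group SD of the 27022 probe sets tested was 0.32 log2 units. Prl, at 2.58, ranked 6 in SD, and the brightest Gh probe set, at 2.06, ranked 14. The brightest Pomc probe set, at 1.15, ranked 247, but the second one, at 1.95, ranked 15. Lhb, at 0.80, ranked 2811. Cga, among the 45037 probe sets without the filter on dim ones, had an SD of 1.75 and ranked 32.

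Promoter letters are shown for orientation for Prl, Pomc and Cga, members that all read highest in wt replicate 5, since none of the arrays measured binding. Lhb, whose letters are not shown, also read highest there, at 9.40 log2 units, 0.49 above the wt median. They are the 250 bases before the start of Prl (chr13:27057320-27057569, plus strand), Pomc (chr12:3954695-3954944, plus strand) and Cga (chr4:34893529-34893778, plus strand), from RefSeq on GRCm38.p6, 5′ to 3′. The table used had an entry for 6 of the 8 genes, Gh and Ghrhr not among them. Capitals mark matches, on either strand, to a POU1F1 motif (TATNCAT) in Prl and to an NR5A1 motif (AAGGNCA) in Pomc and Cga.
Prl: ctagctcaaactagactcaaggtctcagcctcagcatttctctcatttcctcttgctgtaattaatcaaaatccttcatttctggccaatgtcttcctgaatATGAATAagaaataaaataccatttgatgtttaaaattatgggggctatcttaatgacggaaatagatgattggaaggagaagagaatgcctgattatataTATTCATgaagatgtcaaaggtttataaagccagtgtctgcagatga
Pomc: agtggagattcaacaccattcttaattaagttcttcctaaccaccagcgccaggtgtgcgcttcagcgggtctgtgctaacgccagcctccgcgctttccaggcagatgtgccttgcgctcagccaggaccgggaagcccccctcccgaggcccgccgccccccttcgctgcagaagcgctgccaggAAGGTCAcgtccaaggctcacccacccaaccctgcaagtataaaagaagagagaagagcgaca
Cga: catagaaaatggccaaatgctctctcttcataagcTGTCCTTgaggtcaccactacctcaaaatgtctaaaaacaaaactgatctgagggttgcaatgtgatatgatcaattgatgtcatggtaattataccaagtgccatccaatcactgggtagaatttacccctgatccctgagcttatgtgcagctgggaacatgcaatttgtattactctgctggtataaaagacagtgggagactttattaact
Prl held the POU1F1 motif at 47 to 41 bases before the start and, on the minus strand, at 148 to 142 bases. Pomc held the NR5A1 motif at 63 to 57 bases, and Cga on the minus strand at 215 to 209 bases. The matches were not limited to these genes: Lhb held the NR5A1 motif on the minus strand at 129 to 123 and at 59 to 53 bases, Pou1f1 held the POU1F1 motif on the minus strand at 57 to 51 bases, and Tshb held none of the motifs. Of 32851 promoters of the same length, 7.92% held the POU1F1 motif and 17.5% the NR5A1 motif. A PITX1 motif (TAATCC, in 6.25% of promoters) was found in none of the member promoters. A match is only a run of letters and does not show that a factor binds there.

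Pooled over the groups, Gh, Prl, Pomc and Cga varied together in their deviations from the group means. No r was computed within a single group, and for Gh with Pomc some arrays departed from this pattern. In Hsp70, replicate 3, an array of low weight (0.251), had the lowest Gh, at 9.02 log2 units, and the highest Pomc, at 11.06. In aSYN, replicate 2 had the highest Gh, at 9.89, and a Pomc of 9.67, below the aSYN median of 9.92. Pearson's r was computed on deviations from the group means over 24 arrays for all 21 pairs of the 7 measured genes, with two-sided permutation tests of 100000 resamples and Benjamini-Hochberg adjustment over the pairs. Of the 21 pairs, 6 had an adjusted p under 0.05, and these were the 6 pairs among Gh, Prl, Pomc and Cga. By Spearman's rho, 4 pairs did. The permutations shuffled deviations across groups of unlike spread, for Gh an SD of 0.40 in Hsp70 and 3.00 in wt. The p-values may therefore be too small, and the genes were chosen with earlier results of these data known.

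The closest pair was Gh and Cga, with r = 0.85 and rho = 0.66 (adjusted permutation p = 7e-05 for r, n = 24). Pomc and Cga had r = 0.82 and rho = 0.72, Gh and Prl r = 0.80 and rho = 0.72, and Gh and Pomc r = 0.77 and rho = 0.53 (adjusted permutation p = 7e-05, 0.000105 and 7e-05 for r). The 2 arrays farthest from the median of the first gene, wt replicate 5 and aSYN/Hsp70 replicate 6, were then left out. With group means still taken over all 24 arrays, r was 0.64 for Gh and Cga, 0.64 for Pomc and Cga, 0.70 for Gh and Prl and 0.51 for Gh and Pomc. With group means taken again without these 2 arrays, r was lower, at 0.58, 0.59, 0.69 and 0.44 in the same order.

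Prl was less close to Pomc (r = 0.64, rho = 0.39) and to Cga (r = 0.60, rho = 0.42), with adjusted permutation p of 0.00584 and 0.00633 for r. Without the 2 farthest arrays, wt replicates 5 and 6, but with group means over all 24, r was 0.31 for Prl with Pomc and 0.34 for Prl with Cga. With group means taken again without wt replicate 5 and aSYN/Hsp70 replicate 6, r was 0.21 and 0.24, so these relations rested largely on such arrays. Without wt replicates 1 and 5 and aSYN/Hsp70 replicate 6, removed after their values were seen, 0 of the 21 pairs passed the test, and without wt replicate 5 and aSYN/Hsp70 replicate 6 alone, 3 did. Lhb, Tshb and Ghrhr entered no pair that passed: r with Gh was 0.23 for Lhb, 0.37 for Tshb and 0.14 for Ghrhr (adjusted permutation p = 0.495, 0.201 and 0.776, n = 24).

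**Figure D3:**
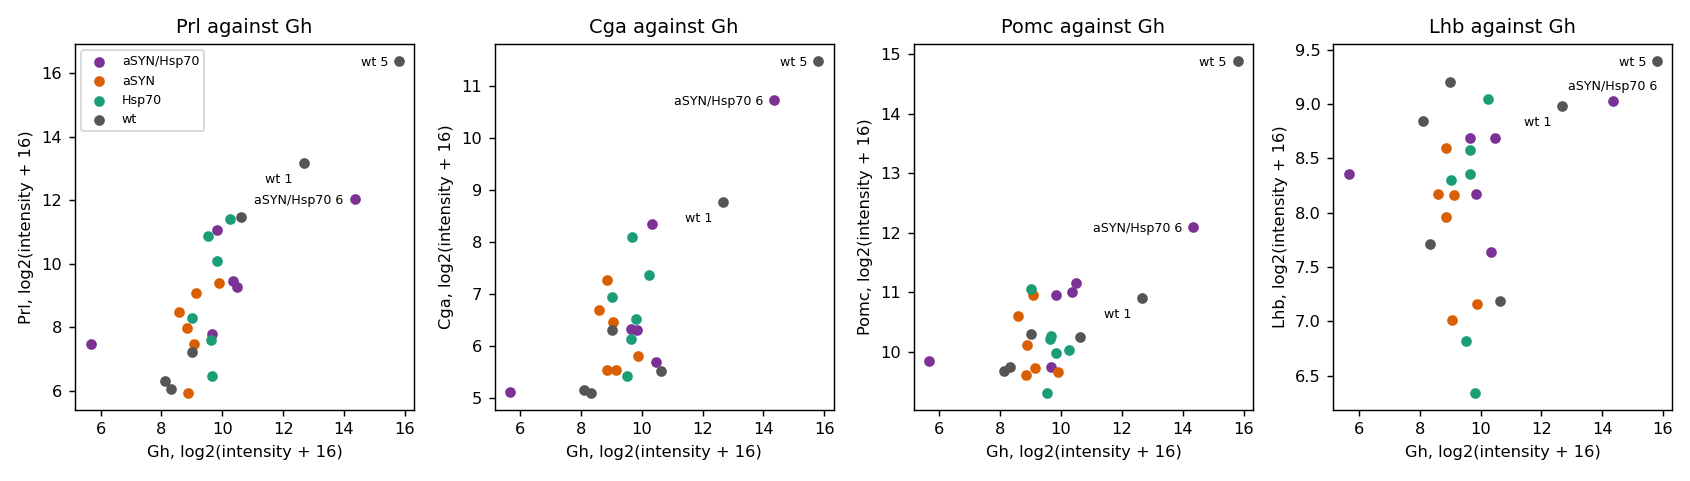
Prl, Cga, Pomc and Lhb (vertical axes) against Gh (horizontal axes) on each of 24 arrays, in normalised log2(intensity + 16), coloured by group. The numbered arrays wt 5, aSYN/Hsp70 6 and wt 1 lie at the upper right for Prl and Cga, wt 5 and aSYN/Hsp70 6 also for Pomc, and Lhb (r = 0.23) shows no such trend.

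Among 18192 other named genes without a filter, Cga and Prl had the highest and second highest r with Gh, and Pomc ranked 4. By rho, which gives less weight to the outlying arrays, Cga ranked 15, Prl 3 and Pomc 159. By r, Tshb ranked 719, Lhb 2600 and Ghrhr 4914. The gene at rank 3 was Def6 (r = 0.77), which encodes a guanine nucleotide exchange factor of immune cells, and Atp5h, a subunit of ATP synthase, ranked 5 (r = 0.70). These r values are descriptions over the same 24 arrays and carry no test. Def6 also read highest in wt replicate 5 and second highest in aSYN/Hsp70 replicate 6, at 9.63 and 9.51 log2 units, but only within a range of 7.82 to 9.63 over all arrays.

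A score was formed as the mean deviation of Gh, Prl, Pomc and Lhb from their group means, and the 12 other genes most like it were Def6 (r = 0.71), Dctn5 (0.69), Atp5h (0.67), Rps6ka6 (0.66), Morn2 (0.66), Myg1 (0.66), Slc36a3 (0.64), 2810029C07Rik (0.63), Sass6 (0.61), 1600012P17Rik (0.61), Pex7 (0.61) and Mmadhc (0.60). Among 12925 genes with a tested probe set, 69, or 0.534%, exceeded r = 0.5, and the median r was 0.02. Several of the 12 moved over a small range: Dctn5, a dynactin subunit, stayed between 13.73 and 13.95 log2 units and Atp5h between 16.01 and 16.23.

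Other genes of the anterior pituitary were taken from a list of 24, of receptors, lineage factors and secretory proteins. Of these, 22 had a named probe set and 10 were bright enough to be tested. None of the 10 exceeded r = 0.5 with the score, and their median r was 0.06. Chga, which encodes chromogranin A, and Pcsk1, the convertase that processes pro-opiomelanocortin, had r = 0.12 and 0.04. Both were bright on every array, at 13.02 to 14.68 and 10.26 to 11.45 log2 units, where a small added amount changes the log2 value little. Whether such an amount was added was not tested. The dim probe set of Lhx3, a factor of pituitary development, read highest of 24 arrays in wt replicate 5 at 8.88 log2 units, but 5.52 to 8.88 was its range and its r was 0.39. Pitx1, another such factor, read 5.38 in wt replicate 5, near its lowest value of 5.11, but 8.64 in aSYN/Hsp70 replicate 6, where it ranked 3. Lhx3 ranked 12 in aSYN/Hsp70 replicate 6. In wt replicate 1, Lhx3 ranked 2 and Pitx1 ranked 19.

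Hypothalamic and posterior lobe neuropeptides had a higher median r than genes in general. Of 15 genes, 12 had a named probe set and 10 were tested, with a median r of 0.30, against 0.02 over all 12925 genes. Only Oxt exceeded r = 0.5 (r = 0.52, rho = 0.43). It read 12.51 log2 units in aSYN/Hsp70 replicate 6, where it ranked 9, against 13.11 and 13.45 in wt replicates 5 and 1, where it ranked 3 and 1. Avp, which encodes vasopressin, had r = 0.39 and also ranked 3 and 1 in wt replicates 5 and 1, and Gal, which encodes galanin, had r = 0.46. The part of these neurons or of the posterior lobe in the hormone values was not tested.

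Markers of other tissue that a whole brain can carry gave median r values between -0.09 and 0.21. The pineal list had 2 tested genes (median r -0.09), choroid plexus 6 (-0.04), meninges 8 (0.15), blood 1 (0.13), olfactory bulb 5 (-0.02) and trigeminal ganglion 1 (0.21), and none of these genes exceeded 0.5. Summed meningeal levels ranged from 14296 to 20361 intensity units in aSYN/Hsp70, 11570 to 15395 in aSYN, 11951 to 18100 in Hsp70 and 12386 to 17491 in wt. The high arrays did not share a rank on them: aSYN/Hsp70 replicate 6 ranked 9 in the meningeal sum and wt replicates 5 and 1 ranked 8 and 6, while in the choroid plexus sum they ranked 9, 21 and 1.

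No measured hormone gene passed the test between genotypes in the limma fit. The fit took all 24 arrays with a mean per group, and a difference was called at a Benjamini-Hochberg adjusted p under 0.05 over the 27022 probe sets tested, or over 45037 without the filter for the dim Cga. Of 30 differences, for Gh, Prl, Pomc, Cga and Lhb in 6 comparisons, 0 were called, and none reached 0.05 before adjustment, where the lowest p was 0.0624. The comparisons share their aSYN/Hsp70 and wt arrays and are not independent of each other.

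Between aSYN/Hsp70 and wt, where 0% of all probe sets were called, Gh differed by -0.70 ± 1.14 log2 units (SE, n = 6 each), with a 95% interval of -3.05 to 1.66 and an limma adjusted p of 0.775. Prl differed by -0.60 ± 1.42 (limma adjusted p = 0.852), Pomc by -0.16 ± 0.63 (0.912), Cga by 0.03 ± 0.97 (0.993) and Lhb by -0.13 ± 0.44 (0.901). Each difference was smaller than its error. Without wt replicate 5, Gh turned to 0.311, Prl to 0.663, Pomc to 0.625 and Lhb to 0.043, and Cga moved to 0.915.

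Between aSYN and wt, where 0.0037% of probe sets were called, all 5 genes had lower means in aSYN and none passed the test. Gh differed by -1.69 (95% interval -4.05 to 0.66), Prl by -2.05 (-5.00 to 0.90), Pomc by -0.85, Cga by -0.84 and Lhb by -0.71 (limma adjusted p = 1 for each, n = 6 each). Without wt replicate 5, Gh differed by -0.684, Prl by -0.792, Pomc by -0.063, Cga by 0.047 and Lhb by -0.541.

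Between Hsp70 and wt, where 0% of probe sets were called, Gh differed by -1.11, Prl by -0.99, Pomc by -0.82, Cga by -0.31 and Lhb by -0.65 log2 units (limma adjusted p = 0.898, 0.916, 0.882, 0.984 and 0.881, n = 6 each). Removal of wt replicate 5 moved Gh to -0.098, Prl to 0.271, Pomc to -0.032, Cga to 0.576 and Lhb to -0.477.

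Between aSYN/Hsp70 and aSYN, 0.718% of all probe sets were called, and none of the hormone genes. Gh differed by 1.00 (95% interval -1.36 to 3.35), Prl by 1.45 (-1.50 to 4.40), Pomc by 0.69, Cga by 0.87 and Lhb by 0.58 log2 units (limma adjusted p = 0.642, 0.579, 0.554, 0.723 and 0.466, n = 6 each). Without aSYN/Hsp70 replicate 6, Gh differed by 0.137 and Cga by 0.14. Between aSYN/Hsp70 and Hsp70, where 0% of probe sets were called, Gh differed by 0.41, Prl by 0.39, Pomc by 0.66, Cga by 0.34 and Lhb by 0.52 (limma adjusted p = 0.927, 0.946, 0.756, 0.951 and 0.725, n = 6 each). Without aSYN/Hsp70 replicate 6, Gh turned to -0.449, Prl to -0.115 and Cga to -0.388 in that comparison, and without Hsp70 replicate 6 Prl turned to -0.14.

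The interaction, the aSYN difference with Hsp70 minus that without it, was 2.10 ± 1.61 for Gh, 2.44 ± 2.01 for Prl, 1.50 ± 0.90 for Pomc, 1.18 ± 1.38 for Cga and 1.23 ± 0.63 for Lhb (SE). Again 0% of all probe sets and none of these genes were called (limma adjusted p = 0.776, 0.794, 0.704, 0.919 and 0.631, n = 6 per group). The intervals of these comparisons are wide, and a p above the threshold does not show that the genotypes have equal levels.

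**Figure D4:**
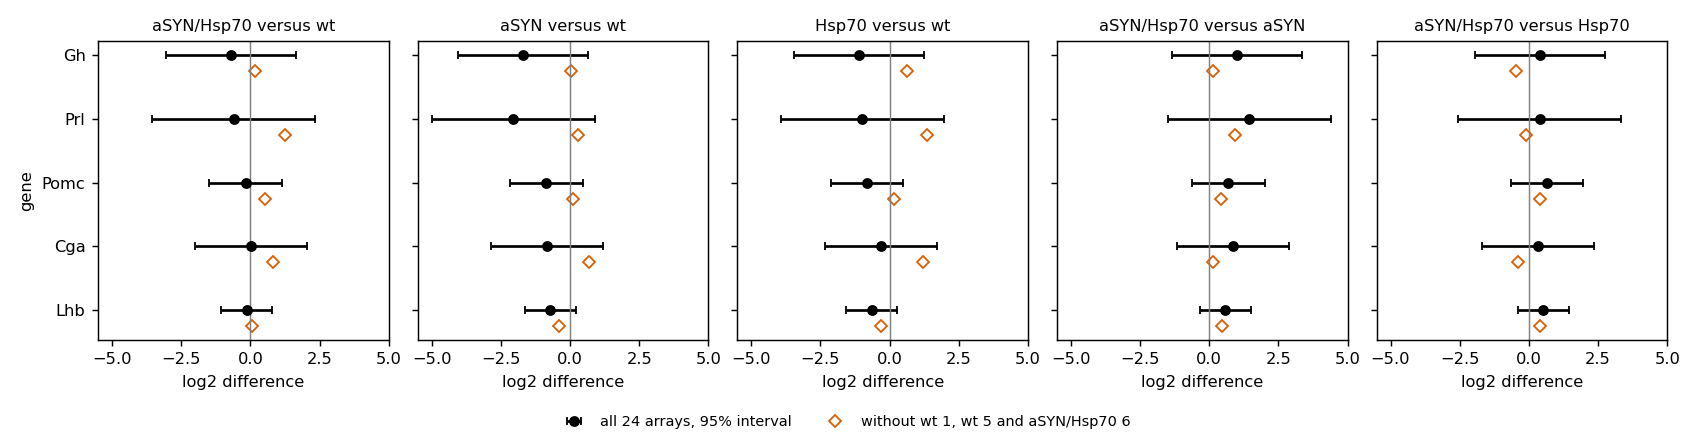
Log2 difference between genotypes for Gh, Prl, Pomc, Cga and Lhb in 5 comparisons, with all 24 arrays (filled circles, 95% interval) and without wt replicates 1 and 5 and aSYN/Hsp70 replicate 6 (open diamonds). Every interval crosses 0; for Gh in aSYN versus wt the value is -1.69 with all arrays and 0.045 without the 3 arrays.

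Receptors and responders of these hormones in the brain, a list of 16 genes with 12 named probe sets, held 10 tested genes, and none of the 10 was called in any of the 6 comparisons. Their median r with the hormone score was -0.10. In the fit without the filter, where 0.0955% of probe sets were called between aSYN/Hsp70 and aSYN, the brightest probe set of Tshr, the receptor of thyroid-stimulating hormone, was higher by 2.54 ± 0.47 log2 units (SE, 95% interval 1.57 to 3.51, limma adjusted p = 0.0446, n = 6 each). It averaged 8.79 ± 0.61 in aSYN/Hsp70, 6.26 ± 0.86 in aSYN, 7.16 ± 0.99 in Hsp70 and 6.32 ± 0.83 in wt (SD), and the aSYN/Hsp70 arrays, at 7.91 to 9.71, did not overlap the aSYN arrays, at 5.28 to 7.77. The other Tshr probe sets differed by 1.83 (limma adjusted p = 0.184) and -0.09 (0.904). With each of these 12 arrays left out in turn, the limma adjusted p of the first probe set ran from 0.0326 to 0.127, and the call was lost in 10 of the 12 fits. It was also lost with only the groups compared (limma adjusted p = 0.119), a replicate block (0.0905), a sex covariate (0.0744) and 4 arrays of low weight removed (0.104). The call was kept without quantile normalisation, with an offset of 1, with array weights and with a trended and robust variance.

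Sex was read as a further source of spread, since prolactin and growth hormone are known to differ by sex in rodent pituitary. Males numbered 4 of 6 in aSYN/Hsp70, 2 in aSYN, 3 in Hsp70 and 2 in wt. The 3 high arrays were of both sexes, with aSYN/Hsp70 replicate 6 male and wt replicates 1 and 5 female. With a term for a continuous sex score beside the group means, 0 hormone genes were called, against 0.0296% of the probe sets tested and 0.0266% without the filter. Prl had a male minus female difference of -1.77 ± 0.99 log2 units (SE, limma adjusted p = 1), with 8.39 ± 2.00 in 11 males and 9.88 ± 2.79 in 13 females (SD). Gh had -0.20 ± 0.85, with 9.79 ± 1.66 in males and 9.96 ± 2.35 in females.

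Prl was also taken relative to Gh within each array, which removes an amount of RNA common to both as far as both genes scale with it. The level of this difference depends on the probes and has no meaning of its own, but it can be compared between arrays. It was -1.40 ± 1.26 log2 units in 11 males and -0.08 ± 1.35 in 13 females (SD), a male minus female difference of -1.32 (two-sided permutation p = 0.0236, 100000 resamples). The permutations took no account of genotype, although the sexes were not balanced over the groups. Of the 11 males, 9 lay below the female median of -0.06, and the sexes overlapped, from -3.21 to 1.21 in males and from -2.95 to 1.79 in females. Within groups the difference was -1.26 in aSYN/Hsp70, -0.33 in aSYN, -2.26 in Hsp70 and -2.09 in wt, with 2 to 4 arrays of each sex. It depended on the Gh probe set: with the other 3 in place of the brightest it was -0.79, -0.97 and -1.12 (permutation p = 0.134, 0.0994 and 0.0517). Without wt replicate 5 and aSYN/Hsp70 replicate 6 it was -1.172 (permutation p = 0.0568).

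**Figure D5:**
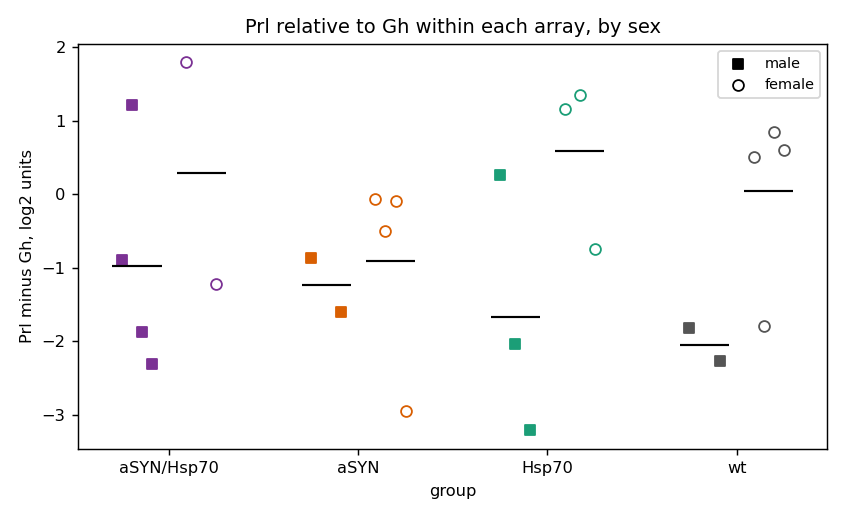
Prl minus Gh in log2 units on each array, for males (filled squares) and females (open circles) of each group, with the mean of each sex (line). The male mean lies below the female mean in all 4 groups, by 0.33 in aSYN and by 1.26 to 2.26 in the others, and single arrays of the sexes overlap.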

How the data were processed

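Values were deposited by the authors as linear intensity per probe set for 24 Affymetrix arrays of mouse whole-brain RNA, 6 per group by the labels. The sources used here do not name the summarising program. On every deposited array the mean intensity, trimmed by 2% of probe sets at each end, was 2500, so each had been scaled by 1 factor. From these, log2(intensity + 16) was computed and quantile normalised; the 16 shrinks differences of dim probe sets. Of 45101 probe sets, 64 controls and the 18015 dimmest (40%) were left out. Probe sets with 1 symbol (34958) were named from the platform annotation, and those with several (932) or none (9211) were not.

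Differences were contrasts in limma 3.58.1 (R 4.3.3) with a mean per group, adjusted by Benjamini-Hochberg and called at 0.05, tested on simulated data first. Single values were compared by permutation tests (scipy 1.17.1), and figures drawn with matplotlib 3.10.9. The hormone genes, the gene lists and the motifs were chosen with earlier results of these data known. The genes named are all members, by the brightest probe set, the 12 most like their score, up to 4 list genes above r = 0.5, and any list gene called; Avp, Gal, Pmch, Trh, Crh, Ghrh, Chga, Pcsk1, Lhx3 and Pitx1 were named after their values were seen. Sex was read from the mean of Y-linked minus that of Xist probe sets. Alternatives were no quantile normalisation, an offset of 1, no filter, array weights, a fit of only the groups compared, a block by replicate number, a sex covariate, a trended and robust variance, other summaries of probe sets, 4 arrays of low weight removed and each array left out; removal of the 3 arrays of highest Gh, and other Gh probe sets, were added after seeing the data. Precision is limited by the number of arrays. The highest Spearman correlation of a pair of arrays was 0.981.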

Additional observations from a re-analysis of the deposited data

Results flagged for a closer look

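Pomc read 14.89 log2 units in wt replicate 5, far from the other wt arrays, of which the nearest read 10.90. The gap was 0.767 of the range of the 6 wt arrays, above the 95% critical value of 0.625 for 6 values. Of 28 groups examined, 7 genes in 4 genotypes, this was the only such array, and chance alone marks about 1 group in 20. Gh, Prl and Cga also read highest in wt replicate 5, with smaller gaps to the next array, wt replicate 1, that did not pass that value.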

How the results depend on the processing

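None of the 769 recomputed member differences, which are refits of the same 30, passed the threshold, the lowest limma adjusted p being 0.276. Few probe sets of any kind were called in the main fit, at most 0.718% in any of the 6 comparisons. Signs were less stable. Without the 3 arrays of highest Gh (wt replicates 1 and 5, aSYN/Hsp70 replicate 6), a choice made after seeing the data, aSYN/Hsp70 minus wt turned to 0.182 for Gh, 1.238 for Prl, 0.544 for Pomc and 0.071 for Lhb. In the same fit aSYN minus wt turned to 0.045, 0.291, 0.117 and 0.694 for Gh, Prl, Pomc and Cga, and Hsp70 minus wt to 0.631, 1.354, 0.147 and 1.222. There aSYN/Hsp70 minus Hsp70 turned to -0.449, -0.115 and -0.388 for Gh, Prl and Cga, and the interaction to -0.494, -0.406 and -1.081. Other reversals were Lhb in aSYN/Hsp70 minus wt without quantile normalisation (0.207), Prl in Hsp70 minus wt (0.339) and Gh and Prl in aSYN/Hsp70 minus Hsp70 (-0.002 and -0.896) with array weights, Prl in aSYN/Hsp70 minus Hsp70 without 4 arrays of low weight (-0.807), and Pomc in aSYN/Hsp70 minus aSYN and minus Hsp70 as the mean of its probe sets (-0.144 and -0.308). The cause was not tested.

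With each array left out, aSYN/Hsp70 minus wt ran from -1.556 to 0.311 for Gh, -1.405 to 0.663 for Prl, -0.42 to 0.625 for Pomc, -0.696 to 0.915 for Cga and -0.399 to 0.043 for Lhb. The aSYN minus wt difference of Cga ran from -1.228 to 0.047. Hsp70 minus wt ran from -1.797 to 0.271 for Prl and -0.699 to 0.576 for Cga, and aSYN/Hsp70 minus Hsp70 from -0.449 to 1.287 for Gh, -0.14 to 0.851 for Prl and -0.388 to 0.734 for Cga. Pairs of correlated genes numbered 6, 4 to 6 with an array left out, 3 without the 2 arrays of highest Gh and 0 without 3. Prl minus Gh by sex was -1.172 (permutation p = 0.0568) without those 2 and -1.113 (0.0804) without the 3, -0.79, -0.97 and -1.12 with other Gh probe sets, and -1.58 to -1.138 with an array left out (p 0.0051 to 0.0467).

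Replicate numbers did not pair the samples: deviations of same-numbered arrays correlated at -0.148 to 0.193 (median 0.02). With the replicate number as a block, 0 members were called, as in the main fit. Every group held the same replicate numbers, so the block could change the errors but not the differences. Gh in aSYN/Hsp70 minus wt, for example, stayed at -0.698, and the unchanged signs are no test of stability.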
